A study of Arabidopsis thaliana with 34 samples.

Results

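The transcription factor genes STZ (also called ZAT10, AT1G27730), AT4G28140, ORA47 (AT1G74930) and AT5G07580 were followed in Arabidopsis leaves from the cold acclimated state through 3 d at -3 °C. They were chosen by name as early zinc finger and AP2/ERF factors, with earlier results of these data known, and are 4 of 13356 genes that have a named probe set on the array. Each is read by 1 probe set. Because their changes over time were known when they were chosen, every change of these 4 genes over time is a description with its standard error and carries no test. Differences between accessions played no part in the choice and were tested.

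STZ is a C2H2 zinc finger protein with an EAR repression motif, known in Arabidopsis leaves as a rapidly and transiently induced regulator in cold, salt, drought, strong light and wounding. AP2/ERF proteins bind DNA through the AP2 domain and include the CBF/DREB factors of cold acclimation and the ethylene response factors. ORA47 is an AP2/ERF protein induced by jasmonate, the hormone of wounding and defence, and is known to act on genes of jasmonate synthesis. AT4G28140 and AT5G07580 belong to the same AP2/ERF family, and the annotation used here gives neither a symbol.

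The samples were leaves of 3 accessions (natural inbred lines) of Arabidopsis thaliana: Te (Tenela), Rsch (Rschew) and Col (Columbia-0). All plants grew for 42 days at 20 °C by day and 18 °C by night under a 16 h day, and all then spent 14 days at 4 °C under 16 h of weaker light (90 µmol m-2 s-1). Leaves of the intact plants at that point are the cold acclimated group. Detached leaves of such plants were put in tubes with water in a dark bath at -3 °C, supercooled and free of ice, and sampled at 8 h, 1 d and 3 d. Each of the 34 ATH1 arrays held RNA from a pool of 3 leaves of 3 plants, and each of the 12 groups had 3 arrays, or 2 for Col at both 8 h and 3 d. No group used here was kept intact, in light or at 4 °C for the same further time, so sub-zero temperature, detachment, darkness and added time cannot be told apart in any change given here. A lower level in a leaf could come from fewer cells of a type or less RNA per cell, and these cannot be told apart.

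The leaf markers RCA (Rubisco activase) and PRK (phosphoribulokinase), the 2 of 8 listed leaf markers measured, lay at 11.09 to 12.92 and 8.63 to 11.80 log2 units over the 34 arrays. PYK10, a beta-glucosidase of roots and the only 1 of 7 listed root and flower markers measured, stayed between 3.27 and 3.89. Both leaf markers averaged less at 3 d than in cold acclimated leaves, 11.65 against 12.58 for RCA and 9.40 against 11.06 for PRK, and their part in the results below was not tested. By the level of the spiked-in bioC control the arrays fell into a set of 9, made up of every replicate 1 array other than those at 8 h, and a set of 25 with all the rest. The 3' minus 5' signal of the actin control probe sets, a sign of RNA and labelling quality, averaged 2.82 log2 units in the smaller set and 2.3 in the larger. By condition it averaged 2.58 in cold acclimated leaves, 2.27 at 8 h, 2.36 at 1 d and 2.52 at 3 d, and its part in the results was not tested.

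The labels of 2 arrays went against the data. Each 1 d and 3 d array was placed on a scale from 0 to 1, the 1 d and 3 d means of Col and Rsch, over the 200 probe sets that differed most between those means; Te took no part in choosing them. The array labelled Te 3 d replicate 1 lay at 0.11, against 0.93 and 0.94 for the other two Te arrays at 3 d. The array labelled Te 1 d replicate 1 lay at 1.11, against -0.01 and 0.03 for the other two at 1 d. Both were kept under their labels, and the main values that rest on them are also given without them.

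**Figure D1:**
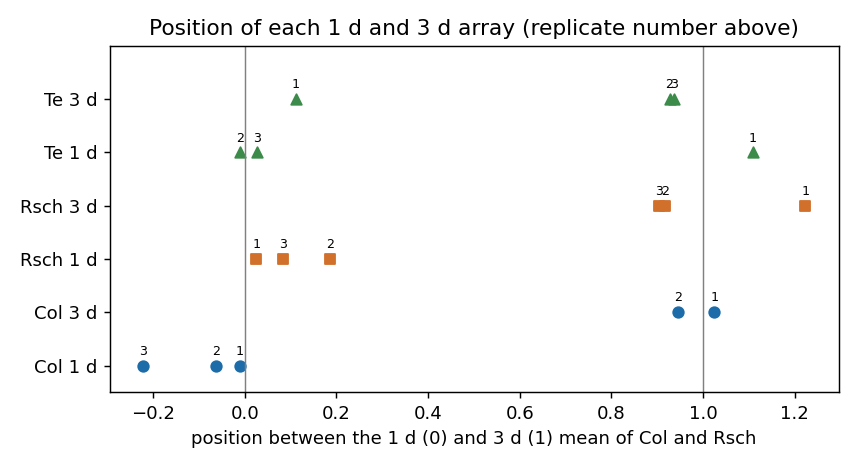
Position of each 1 d and 3 d array, by replicate number, on a scale set at 0 by the 1 d mean and at 1 by the 3 d mean of Col and Rsch (x axis, no unit); rows are accession and time. The array labelled Te 1 d replicate 1 sits at 1.11 and the array labelled Te 3 d replicate 1 at 0.11, each among the arrays of the other time.

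The 4 genes did not share a course. STZ stood higher at 8 h than in cold acclimated leaves by 1.00 ± 0.19 log2 units and was back near the cold acclimated level at 3 d. AT4G28140 stood higher by 2.69 ± 0.47 at 8 h and by 2.4 ± 0.45 at 1 d. ORA47 differed on average by 0.17 ± 0.56 at 8 h and stood lower by 1.82 ± 0.54 at 1 d. AT5G07580 differed by -1.48 ± 0.39 at 8 h, -1.18 ± 0.38 at 1 d and -0.51 ± 0.39 at 3 d, when Te stood at 0.24. The name early thus matched a higher level at 8 h in STZ and AT4G28140 and a lower one in AT5G07580. For ORA47 the values at 8 h were too spread to say. Errors are standard errors of a limma fit to all 34 arrays, averaged over the accessions with equal weight. Of all 22746 probe sets tested in this fit, 3.36% were called higher and 2.59% lower at 8 h, 9.73% and 15.5% at 1 d, and 15.9% and 21% at 3 d, at a Benjamini-Hochberg adjusted p under 0.05.

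**Figure D2:**
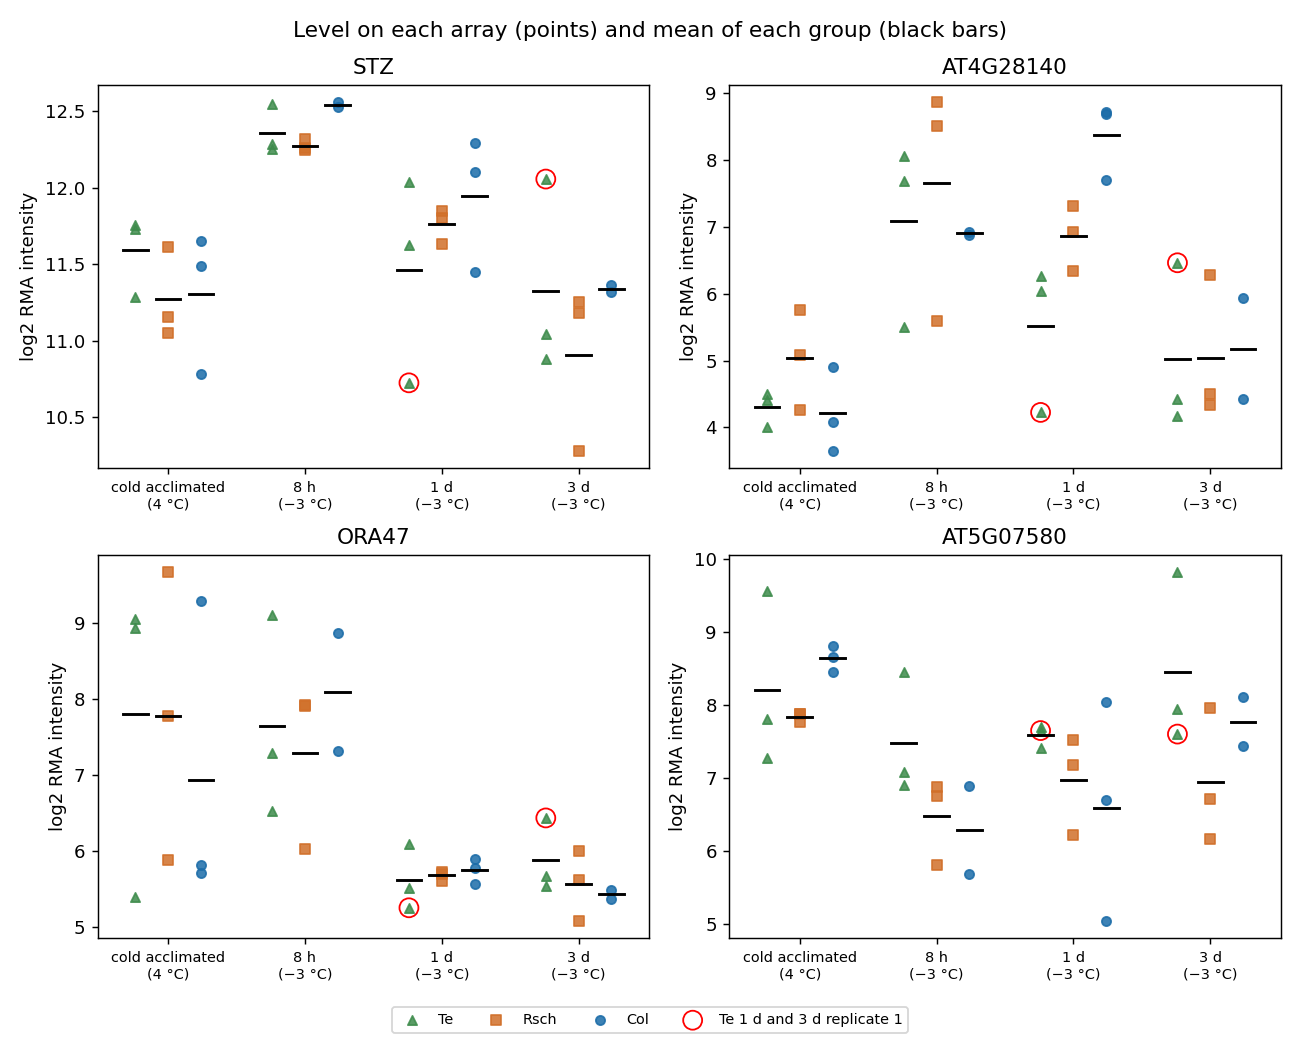
log2 RMA intensity (y axis) of STZ, AT4G28140, ORA47 and AT5G07580 on each of the 34 arrays, by condition (x axis); points are arrays, coloured by accession, black bars are group means, and red rings mark the 2 Te arrays that went against their labels. STZ on all 8 arrays at 8 h lies above all 9 cold acclimated arrays, while ORA47 on the cold acclimated arrays spreads from 5.39 to 9.66.

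STZ was at a high signal on every array, from 10.28 to 12.56 log2 units. In cold acclimated leaves it read 11.76, 11.73 and 11.29 in Te, 11.05, 11.16 and 11.61 in Rsch, and 11.49, 10.78 and 11.65 in Col. At 8 h it read 12.28, 12.55 and 12.25 in Te, 12.26, 12.32 and 12.24 in Rsch, and 12.56 and 12.52 in Col. All 8 arrays at 8 h were above all 9 cold acclimated arrays, which 0.743% of all probe sets also showed. At 1 d it read 10.73, 12.04 and 11.62 in Te, 11.85, 11.80 and 11.63 in Rsch, and 12.29, 12.10 and 11.45 in Col. At 3 d it read 12.06, 11.04 and 10.88 in Te, 10.28, 11.25 and 11.18 in Rsch, and 11.32 and 11.36 in Col. At 1 d 5 of 9 arrays were still above all cold acclimated arrays, and at 3 d only the array labelled Te 3 d replicate 1 was.

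The difference in STZ from cold acclimated leaves was 0.33 ± 0.18 at 1 d and -0.20 ± 0.19 at 3 d. Without the 2 Te arrays it was 0.46 at 1 d and -0.32 at 3 d. The 8 h level was 0.77 ± 0.31 above the cold acclimated level in Te, 1.00 ± 0.31 in Rsch and 1.23 ± 0.35 in Col. Within Te, STZ at 1 d was 0.13 below the cold acclimated level, and 0.24 above it without those arrays. STZ was also more even between arrays at 8 h than at any other time. Its standard deviation within accessions was 0.35 in cold acclimated leaves, 0.11 at 8 h, 0.47 at 1 d and 0.53 at 3 d, and without the 2 Te arrays 0.32 at 1 d and 0.39 at 3 d. At 8 h 89.2% of all probe sets had a larger one, against 20.4% in cold acclimated leaves. Of the 12 group means the 3 lowest were Rsch at 3 d, at 10.90, and Rsch and Col when cold acclimated, at 11.27 and 11.31, and the 3 highest were Rsch, Te and Col at 8 h, at 12.27, 12.36 and 12.54. Of the 11 steps between neighbours in that order, 10 were smaller than the larger standard deviation of the pair, and the exception was the step of 0.18 between Te and Col at 8 h.

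AT4G28140 gave a low signal before the treatment. In cold acclimated leaves it read 4.00, 4.51 and 4.41 in Te, 5.75, 5.09 and 4.25 in Rsch, and 3.65, 4.09 and 4.91 in Col. Of these 9 arrays 8 were below 5.32, the 40th percentile of all values in the table. At 8 h it read 5.50, 7.68 and 8.06 in Te, 5.60, 8.50 and 8.86 in Rsch, and 6.93 and 6.88 in Col. At 8 h 6 of the 8 arrays were above every cold acclimated array, and replicate 1 of Te and of Rsch was not. At 1 d it read 4.22, 6.27 and 6.03 in Te, 6.34, 7.31 and 6.93 in Rsch, and 7.70, 8.69 and 8.71 in Col. Only the array labelled Te 1 d replicate 1 was then within the cold acclimated range. At 3 d it read 6.46, 4.17 and 4.43 in Te, 4.33, 6.28 and 4.50 in Rsch, and 4.42 and 5.93 in Col, with 5 of the 8 arrays again below 5.32.

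At 8 h the difference in AT4G28140 from cold acclimated leaves was 2.77 ± 0.78 in Te, 2.62 ± 0.78 in Rsch and 2.69 ± 0.87 in Col. At 1 d it was 1.20 ± 0.78 in Te, 1.83 ± 0.78 in Rsch and 4.15 ± 0.78 in Col. Every Col array at 1 d was above every Te and Rsch array at 1 d, as for 3.14% of all probe sets (3.68% without the array labelled Te 1 d replicate 1). The change at 1 d differed between Te and Col by -2.95 ± 1.10 (95% interval -5.22 to -0.69) and between Rsch and Col by -2.32 ± 1.10 (-4.59 to -0.06). limma's F test of equal change at 1 d in the accessions gave an unadjusted p of 0.0312 and an adjusted p of 1.00, so it was not called. Only 0.0264% of all probe sets were called by that test at 1 d. Without the 2 Te arrays the change in Te at 1 d was 1.85 ± 0.79, the difference between Te and Col -2.31 ± 1.05, and the unadjusted p 0.0473. In the larger bioC set alone the difference was -2.51 ± 1.26 between Te and Col and -1.76 ± 1.26 between Rsch and Col, and the unadjusted p was 0.155. The average over accessions without them was 2.61 at 1 d and 0.32 at 3 d, against 2.4 and 0.56 with them. Within Te the difference at 3 d was 0.71, and -0.01 without them.

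In the order of the 12 group means AT4G28140 was lowest in Col and Te when cold acclimated, at 4.22 and 4.31, and highest in Col at 1 d, at 8.37. The 3 means at 8 h and that of Rsch at 1 d lay between 6.86 and 7.65. Of the 11 steps between neighbours 10 were within the larger standard deviation of the pair. The exception was the step of 1.35 from Te at 1 d, at 5.51, to Rsch at 1 d. Without the array labelled Te 1 d replicate 1 the mean of Te at 1 d was 6.15. At 8 h the arrays of 1 accession differed by a standard deviation of 1.43, which 0.127% of probe sets exceeded.

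**Figure D3:**
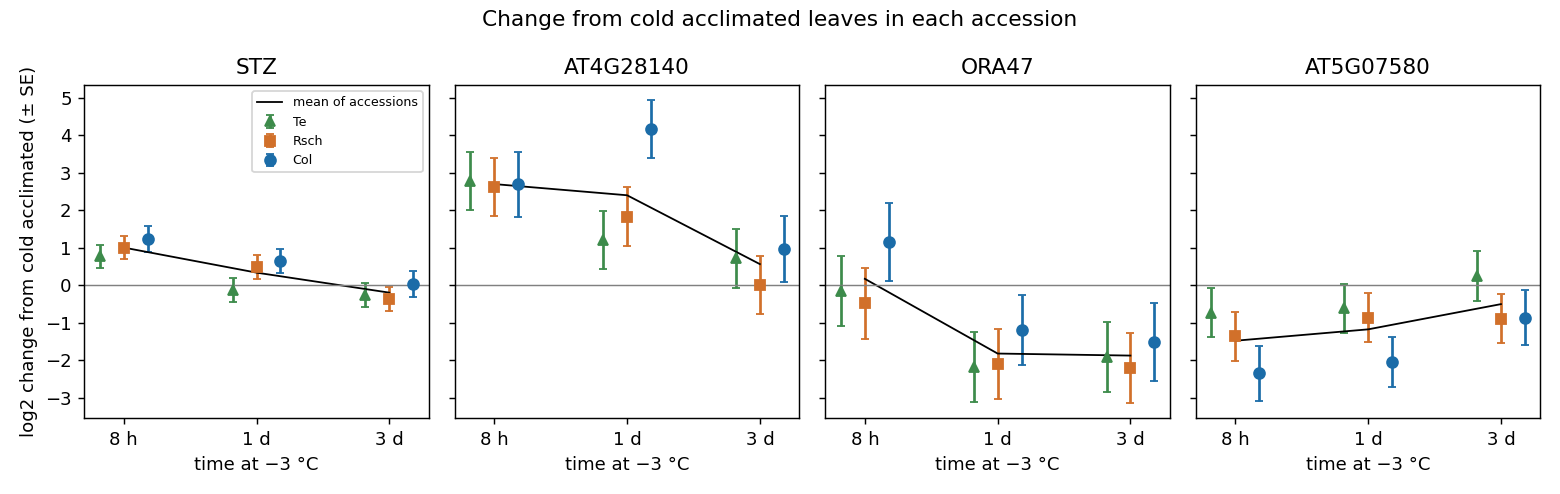
log2 change from cold acclimated leaves (y axis) after 8 h, 1 d and 3 d at -3 °C (x axis) for STZ, AT4G28140, ORA47 and AT5G07580 in Te, Rsch and Col; bars are standard errors of the fit and the line is the mean of the accessions. AT4G28140 at 1 d lies at 1.20 in Te and 1.83 in Rsch, below 4.15 in Col, while at 8 h the accessions lie at 2.62 to 2.77.

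ORA47 varied widely between arrays of the same group until 8 h and was low on all arrays after that. In cold acclimated leaves it read 5.39, 8.94 and 9.06 in Te, 7.77, 5.88 and 9.66 in Rsch, and 5.81, 5.71 and 9.29 in Col. Of these 9 arrays 5 were at 7.77 or above and 4 at 5.88 or below, and each accession had both. At 8 h it read 7.29, 9.10 and 6.52 in Te, 7.92, 7.91 and 6.03 in Rsch, and 7.31 and 8.87 in Col. The 8 h range lay wholly within the cold acclimated range. At 1 d it read 5.25, 6.09 and 5.51 in Te, 5.70, 5.60 and 5.72 in Rsch, and 5.56, 5.77 and 5.88 in Col. At 3 d it read 6.43, 5.67 and 5.54 in Te, 5.62, 5.99 and 5.08 in Rsch, and 5.37 and 5.48 in Col. None of the 17 arrays at 1 d or 3 d exceeded 6.43, so all of them lay below the 5 high cold acclimated values, and they overlapped the 4 low ones.

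The difference in ORA47 from cold acclimated leaves at 1 d was -2.18 in Te, -2.10 in Rsch and -1.20 in Col, each ± 0.93, and the average at 3 d was -1.88 ± 0.56. The 1 d difference in Col rested on cold acclimated replicate 3, and without that array it was -0.02. Leaving out the replicate 3 array of cold acclimated Te or Rsch gave -1.54 in Te and -1.15 in Rsch at 1 d. Without the 2 Te arrays the averages were -1.76 at 1 d and -1.97 at 3 d, and the difference in Te at 1 d was -1.99. The direction at 8 h was not settled. By accession the difference then was -0.16 ± 0.93 in Te, -0.49 ± 0.93 in Rsch and 1.15 ± 1.04 in Col. It was 0.17 over all arrays, -0.42 ± 0.63 in the larger bioC set alone, and between -0.23 and 0.56 when single arrays were left out, the lowest without Te cold acclimated replicate 1 and the highest without Col cold acclimated replicate 3. In the order of the 12 group means the 6 groups of 1 d and 3 d, from 5.43 to 5.88, stood below the 6 of cold acclimated and 8 h leaves, from 6.94 to 8.09. The step between these sets, 1.06, was smaller than the standard deviation of 2.04 among the Col cold acclimated arrays, and so was every other step relative to its own pair.

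The spread of ORA47 among cold acclimated arrays was among the widest on the chip. Its standard deviation within accessions was 2.01 there, which 14 of 22746 probe sets exceeded, and 1.19 at 8 h, which 66 exceeded. It was 0.27 at 1 d and 0.42 at 3 d (0.22 and 0.33 without the 2 Te arrays), and the median of all probe sets was 0.21 in each of the 4 conditions. All 3 cold acclimated arrays numbered replicate 3 were high, at 9.06 in Te, 9.66 in Rsch and 9.29 in Col. The replicate 1 arrays, all in the smaller bioC set, read 5.39, 7.77 and 5.81 in the same order. The part that replicate or array set had in this spread was not tested.

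Other probe sets moved with ORA47 among the 9 cold acclimated arrays. This search was made after the values were seen, over the 152 probe sets with 1 gene and a standard deviation of at least 1 there, on deviations from the accession mean, and is a description. Of these 16 had a Pearson correlation above 0.9. The 5 highest were AT4G29780, AT1G19210, AT2G19310, AT4G27654 and AT1G26800, at 0.95 each. AT1G21050 and AT5G20790 went the other way, at -0.92 each, and AT2G44940 at -0.88. On the 8 arrays at 8 h, which took no part in the search, the correlation with ORA47 was 0.76 for AT4G29780, 0.69 for AT1G19210, 0.29 for AT2G19310, 0.02 for AT4G27654 and 0.33 for AT1G26800. It was 0.09 for AT1G21050, 0.31 for AT5G20790 and -0.53 for AT2G44940. The points in each of these correlations share the accession mean taken from them. Among the cold acclimated arrays ORA47 correlated at 0.35 with STZ, 0.27 with AT4G28140 and -0.55 with AT5G07580.

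**Figure D4:**
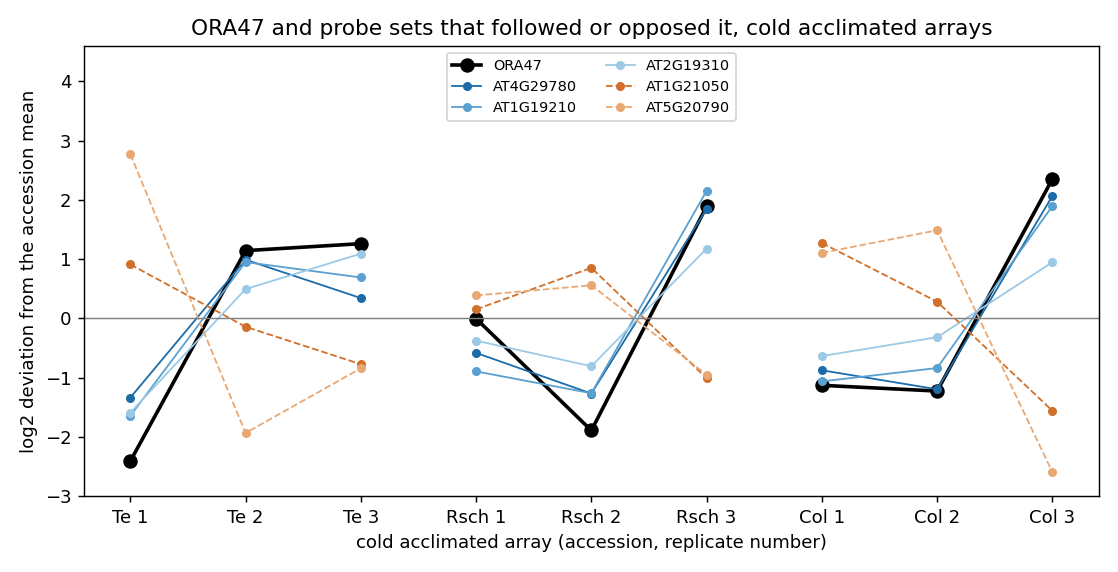
log2 deviation from the accession mean (y axis) on the 9 cold acclimated arrays (x axis: accession and replicate number) for ORA47, the 3 probe sets that followed it best and the 2 that opposed it most; lines only join the points of 1 probe set within an accession. ORA47 and AT4G29780 both lie above the accession mean on replicate 3 in all accessions, while AT5G20790 lies below it there.

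AT5G07580 ran the other way from STZ and AT4G28140. In cold acclimated leaves it read 9.56, 7.81 and 7.27 in Te, 7.88, 7.76 and 7.88 in Rsch, and 8.81, 8.45 and 8.66 in Col. At 8 h it read 8.45, 7.08 and 6.91 in Te, 6.76, 5.81 and 6.87 in Rsch, and 6.89 and 5.69 in Col. Of the 8 arrays at 8 h 7 were below every cold acclimated array, the exception being Te replicate 1. At 1 d it read 7.65, 7.42 and 7.70 in Te, 7.53, 6.22 and 7.18 in Rsch, and 8.04, 5.05 and 6.70 in Col. At 3 d it read 7.60, 7.95 and 9.82 in Te, 7.96, 6.16 and 6.72 in Rsch, and 8.11 and 7.43 in Col. At 1 d 4 of 9 arrays, and at 3 d 2 of 8, were below every cold acclimated array.

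The difference in AT5G07580 from cold acclimated leaves was -1.48 ± 0.39 at 8 h, -1.18 ± 0.38 at 1 d and -0.51 ± 0.39 at 3 d. Without the 2 Te arrays it was -1.19 at 1 d and -0.36 at 3 d. At 8 h it was -0.73 in Te, -1.36 in Rsch and -2.35 in Col, and at 3 d 0.24 in Te, -0.89 in Rsch and -0.87 in Col. Without the array labelled Te 3 d replicate 1 the value in Te at 3 d was 0.67. In the larger bioC set, which leaves out the high cold acclimated replicate 1 of Te and both Te arrays that went against their labels, the Te values were -0.06 at 8 h, 0.02 at 1 d and 1.35 at 3 d. In the order of the group means Col at 8 h was lowest, at 6.29, and Col when cold acclimated highest, at 8.64, and no step between neighbours exceeded the larger standard deviation of the pair. Within accessions the standard deviation was 0.70 in cold acclimated leaves, 0.75 at 8 h, 0.95 at 1 d and 0.98 at 3 d (1.04 and 0.96 without the 2 Te arrays). Cold acclimated Rsch was tight, at 0.07, and cold acclimated Te wide, at 1.20.

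Between successive times the genes also went different ways. STZ was lower at 1 d than at 8 h by 0.67 ± 0.19, and its 3 d level differed from that at 1 d by -0.53 ± 0.19. For AT4G28140 the step from 8 h to 1 d was -0.30 ± 0.47, and the step from 1 d to 3 d -1.84 ± 0.47. For ORA47 the first step was -1.99 ± 0.56 and the second -0.05 ± 0.56. For AT5G07580 they were 0.30 ± 0.39 and 0.67 ± 0.39.

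No difference between accessions was called for any of the 4 genes. In all 20 F tests were read, 1 per gene in cold acclimated leaves and 4 per gene for the change over time, at each time and over all times. limma called 0 of the 20 after Benjamini-Hochberg adjustment over all probe sets, and the smallest adjusted p was 0.764. In this fit 1 of the 20, AT4G28140 at 1 d, had an unadjusted p under 0.05. Which gene stood out depended on the arrays. In the larger bioC set alone the change of AT5G07580 at 1 d differed between Te and Col by 2.70 ± 0.92. At 3 d it differed there by 2.47 ± 1.03 between Te and Col and by 2.73 ± 0.92 between Te and Rsch. Over all arrays these 3 differences were 1.42 ± 0.93, 1.11 ± 0.98 and 1.14 ± 0.93. Col at 3 d kept only replicate 2 in the larger set. In cold acclimated leaves the adjusted p was 0.800 for STZ, 0.789 for AT4G28140, 0.824 for ORA47 and 0.764 for AT5G07580, where the same test called 8.36% of all probe sets. For the change at 8 h, 1 d and 3 d, and over all times, the tests called 0.0044%, 0.0264%, 0.0308% and 0.0528% of them. These results do not show equal levels, and the intervals are wide. In cold acclimated leaves Te minus Col was 0.28 for STZ (95% interval -0.36 to 0.92), 0.09 for AT4G28140 (-1.51 to 1.69), 0.86 for ORA47 (-1.07 to 2.78) and -0.43 for AT5G07580 (-1.78 to 0.92). Rsch minus Col was -0.03 for STZ (-0.67 to 0.61), 0.82 for AT4G28140 (-0.79 to 2.42), 0.84 for ORA47 (-1.09 to 2.76) and -0.80 for AT5G07580 (-2.15 to 0.55). Te minus Rsch was 0.32 for STZ (-0.32 to 0.96), -0.72 for AT4G28140 (-2.33 to 0.88), 0.02 for ORA47 (-1.90 to 1.94) and 0.37 for AT5G07580 (-0.98 to 1.72). The ORA47 differences turned on single arrays: with each array left out in turn Te minus Col ran from 0.23 to 2.06, Rsch minus Col from -0.11 (without Rsch cold acclimated replicate 3) to 2.01 (without Col cold acclimated replicate 3), and Te minus Rsch from -0.92 (without Rsch cold acclimated replicate 2) to 1.22 (without Te cold acclimated replicate 1).

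Over the 12 group means STZ correlated with AT4G28140 at 0.77, with ORA47 at 0.52 and with AT5G07580 at -0.59. AT4G28140 correlated with AT5G07580 at -0.82 and with ORA47 at 0.01, and ORA47 with AT5G07580 at -0.01. These were, without the 2 Te arrays, 0.79, 0.51, -0.64, -0.83, 0.03 and -0.08 in the same order. They are descriptions, and the means share their arrays. The genes most like each of the 4 were sought among 3753 probe sets with 1 gene whose group means spanned at least 1 log2 unit. For STZ they were AT4G29780 at 0.99, AT5G17350 at 0.97, AT3G52800 and AT1G58420 at 0.95 and AT3G04640 at 0.94. AT4G29780 averaged 9.53 in cold acclimated leaves, 11.64 at 8 h, 10.38 at 1 d and 9.15 at 3 d, and it was also first among the probe sets that moved with ORA47 between cold acclimated arrays. For AT4G28140 they were AT4G35985, AT2G03240, AT1G02660, AT4G01090 and AT2G22760, at 0.91 to 0.93. AT2G22760 averaged 4.47 in cold acclimated leaves, 7.16 at 8 h, 6.94 at 1 d and 5.0 at 3 d. For ORA47 they were AT4G27657, AT3G19000, AT1G72240, AT3G09410 and AT1G70250, at 0.91 to 0.94. AT1G72240 averaged 7.32 in cold acclimated leaves, 6.88 at 8 h, 5.15 at 1 d and 4.83 at 3 d. For AT5G07580 the 5 best, AT3G26510, AT4G10170, AT5G41400, AT3G10190 and AT3G13190, reached only 0.79 to 0.84. AT3G26510 averaged 8.39 in cold acclimated leaves, 6.53 at 8 h, 7.29 at 1 d and 8.03 at 3 d. Which genes came out on top depended on the measure: by Spearman's rank correlation 1 of the 5 for STZ and 2 of the 5 for each of the other genes were the same. Without the 2 Te arrays 5 of the 5 were the same for STZ and for ORA47, 4 for AT4G28140 and 0 for AT5G07580.

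Of 140 entries in 6 lists of genes related by family or pathway, 21 had a probe set named here. The lists were chosen with earlier results of these data known, so their tests are not independent support. Of these 21, limma called 5 higher and 0 lower at 8 h, 7 higher and 2 lower at 1 d, and 7 higher and 3 lower at 3 d than in cold acclimated leaves, against 3.36% and 2.59%, 9.73% and 15.5%, and 15.9% and 21% of all probe sets. The median change of the 21 was 0.10 at 8 h, 0.12 at 1 d and 0.17 at 3 d, and that of all probe sets -0.00, -0.00 and 0.03. Every call at 1 d and 3 d held without the 2 Te arrays, and AT2G28200 was then also called at 1 d, at -0.86 (limma adjusted p 0.0425). At 8 h 7 of the 21 had an unadjusted p under 0.05. Of the relatives listed as nearest only AT5G61590 was measured, and it is given below. CBF1 to CBF3, AZF1, AZF2 and ERF053 have no probe set named here and were not analysed here.

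Among the C2H2 zinc finger relatives of STZ, 6 of 17 were measured and 1 rose at every time. AT3G53600 averaged 3.82 in cold acclimated leaves, 5.57 at 8 h, 5.54 at 1 d and 4.94 at 3 d. Its cold acclimated and 3 d means were below 5.32, so a low signal limits how well the size of its rise is known. Its rise was 1.75 ± 0.27 at 8 h (limma adjusted p 0.00018), 1.73 ± 0.26 at 1 d (2.42e-05) and 1.13 ± 0.27 at 3 d (0.00203). AT3G60580, below 5.32 in every condition mean, fell by 0.41 ± 0.08 at 1 d (0.000696) and by 0.35 ± 0.09 at 3 d (0.00291). AT2G45120 rose by 0.21 ± 0.06 at 3 d (0.00817), with means of only 3.34 at 3 d and 3.13 in cold acclimated leaves, both among the dimmer probe sets. The calls of both at 3 d were lost in the larger bioC set alone (0.0754 for AT3G60580 and 0.125 for AT2G45120). The list's median change was 0.01 at 8 h, 0.12 at 1 d and 0.14 at 3 d.

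None of the 5 measured of 20 listed genes of the DREB branch, which holds the CBF factors, was called by limma at any time. Of the 5, 1 at 8 h, 0 at 1 d and 0 at 3 d had an unadjusted p under 0.05. Of all probe sets 3.36% were called higher and 2.59% lower at 8 h, 9.73% and 15.5% at 1 d, and 15.9% and 21% at 3 d. No call among 5 genes therefore says little about the branch. All 5 were dim, with condition means of 3.83 to 5.0, so a low signal limits what they could show. The largest change among them was that of AT5G65130, at 0.23 ± 0.10 at 8 h, 0.19 ± 0.09 at 1 d and 0.19 ± 0.10 at 3 d. The median change of these 5 listed genes, which are not the whole branch, was 0.09, 0.12 and 0.07 at the 3 times. One of 36 listed ethylene response factors was measured, AT5G61590, and it rose by 0.89 ± 0.33 at 3 d (limma adjusted p 0.0369). It averaged 10.54 at 3 d and 9.65 in cold acclimated leaves, and its call was lost when any 1 of 10 single arrays was left out.

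Jasmonate genes were listed because of ORA47. In jasmonate synthesis, 2 of 16 were measured. OPCL1, a coenzyme A ligase that prepares jasmonate precursors for shortening, averaged 9.50 in cold acclimated leaves, 10.60 at 8 h, 10.42 at 1 d and 9.36 at 3 d. It rose by 1.10 ± 0.30 at 8 h (limma adjusted p 0.0307) and by 0.92 ± 0.29 at 1 d (0.0222). The call at 8 h was lost without any 1 of 9 single arrays, with the bioC set as a block (adjusted p 0.0723) and in the larger set alone (0.0614), and the call at 1 d without any 1 of 4. JMT, the jasmonate methyltransferase, had condition means of 4.41 to 5.12, below 5.32, and fell by 0.71 ± 0.13 at 3 d (0.000126).

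In jasmonate signalling, response and turnover, 6 of 28 listed genes were measured and 5 of them were called at 1 d, 4 higher and 1 lower. Of all probe sets 9.73% were called higher and 15.5% lower at that time. The 6 measured genes are not the whole list, and the count is no result about the pathway. AT2G38240, listed among the genes of jasmonate turnover with its change already known, stood higher by 1.99 ± 0.39 at 8 h, 4.58 ± 0.37 at 1 d and 4.72 ± 0.39 at 3 d. It is in the counts of calls, and its values are a description. AT5G05600 rose by 2.28 ± 0.34, 2.80 ± 0.32 and 2.26 ± 0.34 at the same times (limma adjusted p 7.89e-05, 6.7e-07 and 1.11e-05). JRG21 (AT3G55970), named a jasmonate-regulated gene, stood at 0.60 ± 0.39 at 8 h (0.368) and rose by 1.79 ± 0.37 at 1 d (0.000791) and 1.98 ± 0.39 at 3 d (0.000254). AT3G11180, dim at condition means of 4.02 to 4.33, rose by 0.30 ± 0.10 at 1 d (0.0249), a call lost with quantile normalization (0.0577) and without any 1 of 3 single arrays. MYC4, a basic helix-loop-helix factor of the jasmonate response, fell by 0.78 ± 0.20 at 1 d (0.00579) and 0.90 ± 0.21 at 3 d (0.00149). Its relative MYC3 was not called at any time, with changes between -0.14 and 0.12. The list's median change was 0.40 at 8 h, 1.05 at 1 d and 1.08 at 3 d.

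CML38, a calmodulin-like protein known to be induced by wounding, was the only 1 of 23 other listed early cold and wound regulators measured. It averaged 9.21 in cold acclimated leaves, 11.17 at 8 h, 10.91 at 1 d and 10.25 at 3 d. It rose by 1.96 ± 0.33 at 8 h (limma adjusted p 0.000417), 1.70 ± 0.32 at 1 d (0.00024) and 1.04 ± 0.33 at 3 d (0.0141). The call at 3 d was lost without Col 3 d replicate 2 (0.0528).

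**Figure D5:**
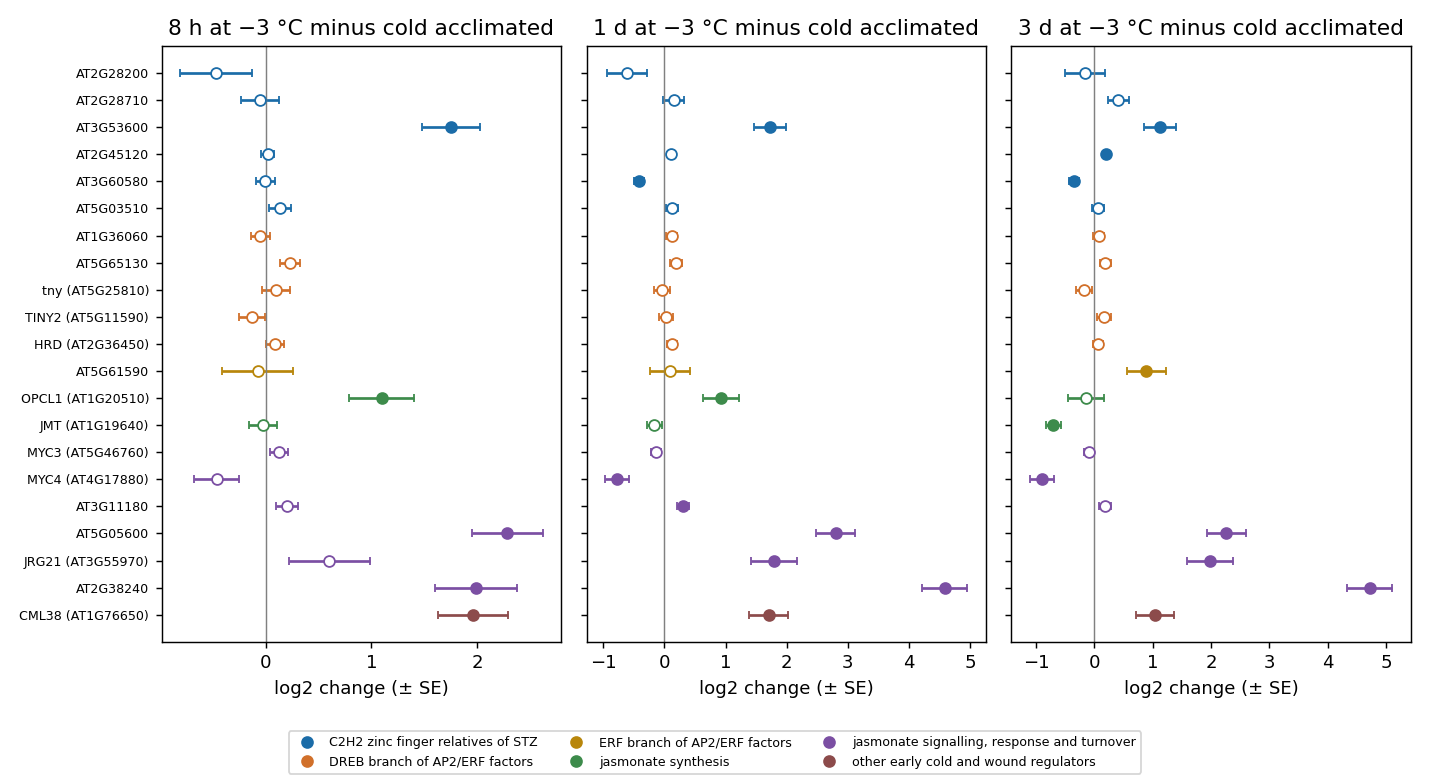
log2 change from cold acclimated leaves (x axes) at 8 h, 1 d and 3 d at -3 °C of the 21 measured genes of the 6 related lists (rows, coloured by list); bars are standard errors and filled points passed an adjusted p of 0.05. AT2G38240 and AT5G05600 lie furthest right at 1 d, at 4.58 and 2.80, and the 5 measured genes of the DREB list, all dim, lie near 0 at every time.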

How the data were processed

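RNA of 34 leaf pools was measured on ATH1 arrays. The authors made the deposited log2 intensities with RMA, per the submitters' processing notes; version and annotation are not given in the sources used here, and the log2 scale was taken from the values (2.14 to 13.80). RMA makes array distributions alike (array medians 5.97 to 6.22), so levels are relative, and the number of arrays limits the precision. Groups came from the sample titles. The 64 control probe sets were left out and 22746 tested. Names came from the platform annotation, which may be old, updated through RefSeq TAIR10.1 (13513 probe sets had 1 gene, 13436 of them matched; 503 had several and 8730 none named here).

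limma 3.58.1 (R 4.3.3) fitted 12 group means to all arrays (22 residual degrees of freedom, lmFit, eBayes, Benjamini-Hochberg over all probe sets, two-sided, threshold 0.05). The fit was also run on simulated arrays with independent noise, which cannot check it where arrays deviate together. Replicates are labelled as independent. Summaries used Python 3.11.15 with pandas 2.3.3. The genes and lists were chosen with earlier results of these data known. Genes named are the 4, their 5 most alike, and per list and time the up to 3 called genes of largest change, or the largest where none was called; others were chosen after their values were seen. Alternatives were other normalizations, blocks, filters, array subsets and single arrays left out. A search of promoters was planned but not run, for want of sequences.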

Additional observations from a re-analysis of the deposited data

How the results depend on the processing

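Averaged over the accessions, the changes of the 4 genes from cold acclimated leaves kept their direction in 11 other settings and with each of the 34 arrays left out, except ORA47 at 8 h, and no F test between accessions gained a call. Within single accessions 8 of 36 changes turned sign in at least 1 setting: STZ in Col at 3 d (-0.23 to 0.27) and in Te at 1 d (-0.42 to 0.32), ORA47 at 8 h in Rsch (-1.43 to 0.46) and Te (-1.36 to 0.47), AT4G28140 at 3 d in Rsch (-0.62 to 0.72) and Te (-0.16 to 1.14), and AT5G07580 in Te at 1 d (-1.09 to 0.05) and 3 d (-0.44 to 1.35). The number of probe sets called at 8 h, 1352, became 2245 with the replicate block, 2741 with accession and replicate number as a random block and 2083 with array weights, and ranged from 726 (without Col 8 h replicate 1) to 1543 with single arrays left out. The number called between cold acclimated accessions, 1902, became 2963 with the replicate block, 2961 with array weights, 1122 in the larger bioC set alone and 883 in a fit of only the arrays compared. The number called for accession by condition, 12, became 19 with the random block and 1 in the larger set. Same-numbered arrays tended to deviate together: 128 of 177 pairs had deviations that correlated above 0.1. The median was 0.20, the lowest -0.24 and the highest 0.61, and the random block gave a correlation of 0.26. The main fit took no account of this, and its source was not tested. Of the 5 genes most like each of the 4, the number shared by Spearman over group means and by Pearson over 34 arrays was 1 and 3 for STZ, 2 and 3 for AT4G28140, 2 and 1 for ORA47, and 2 and 1 for AT5G07580. A mean over several probe sets of a gene gave no other value, since each measured gene had 1. Signal limits AT4G28140, which was among the dimmer probe sets on 8 of 9 cold acclimated arrays.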
